A study of Mus musculus with 2 samples.

Results

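The kinesin motor genes were taken as all protein-coding genes of the GENCODE vM21 annotation on mm10 whose symbol is Kif followed by a number and an optional letter. This gave 38 genes of 21911 protein-coding genes. They were split by known role into 9 axonal transport kinesins, 6 other cargo kinesins, 6 ciliary and centriolar kinesins, 5 other kinesins and 12 mitotic kinesins. The C-terminal motors and Cenpe, whose symbols have another form, were not members.

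Chromatin accessibility was measured by DNase-seq, which sequences the ends left by DNase I cutting in isolated nuclei, so that open regulatory DNA appears as peaks of cleavage. The only group was frontal cortex of male B6CASTF1/J mice aged 10 days, a first-generation cross of C57BL/6J with CAST, obtained from The Jackson Laboratory, with no treatment and no second genotype. It held 2 biological replicates, of which replicate 2 alone carries the word postnatal. Each was described as 3x male, both carry the same donor entry, and whether animals were pooled is not stated. The spread between the libraries may therefore be technical, and no test between conditions was possible. The comparisons are counts and levels over genes, which are not replicates.

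Replicate 1 had 39608 peaks and replicate 2 had 45915, with 170738 and 227460 footprints, which are narrow stretches inside open DNA where cutting is reduced. From the steps between deposited densities, replicate 2 was 1.64 times as deep as replicate 1, and absolute depth is not given. A promoter peak counted for 8 of 12 markers of cortical neurons in both libraries and for 9 of 9 markers of dividing cells. It counted for 2 of 5 markers of astrocytes, 3 of 5 of the oligodendrocyte lineage, 1 of 4 of microglia, 1 of 3 of endothelium and 1 of 3 of ependyma. The share over all protein-coding genes was 55.1%, so counts over a few markers say little about the make-up of the tissue. Among the neuronal markers, Gad1 and Slc17a7 had none in either library, and Tbr1 and Neurod6 had one in replicate 2 only.

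Kinesins are motor proteins that burn ATP to move along microtubules or to take microtubules apart. In neurons, motors of the kinesin-1, kinesin-2 and kinesin-3 families carry vesicles, mitochondria and protein complexes from the cell body along the axon, often through adaptors such as kinesin light chains. Other members build and move the mitotic spindle and complete cell division, and their genes are known for peak expression late in the cell cycle. Cortical neurons at this age have left the cell cycle, while precursors of glia still divide.

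Promoter windows of most mitotic kinesins held a sequence element that was absent from those of the 7 transport kinesins with a window. The stretches that hold it near the start are printed first because the motif results turn on them. The element is the CHR (cell cycle genes homology region), TTTGAA or its reverse complement TTCAAA, known from promoters of genes expressed in late cell cycle. Each line gives 60 bases before and 30 bases from the RefSeq start on GRCm38 (mm10), read 5′ to 3′ in the direction of the gene, with the CHR in capitals. These 7 mitotic genes are the ones with a CHR within 30 bp of the start, and this window was chosen after the positions were seen.
Kif11, chr19:37376322-37376411, + strand: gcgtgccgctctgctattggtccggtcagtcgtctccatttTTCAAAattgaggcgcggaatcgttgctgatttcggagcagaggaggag
Kif15, chr9:122951021-122951110, + strand: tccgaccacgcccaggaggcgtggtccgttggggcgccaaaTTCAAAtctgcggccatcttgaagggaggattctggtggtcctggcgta
Kif18b, chr11:102925095-102925184, - strand: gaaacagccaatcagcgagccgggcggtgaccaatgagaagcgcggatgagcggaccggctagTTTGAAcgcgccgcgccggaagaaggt
Kif20b, chr19:34922298-34922387, + strand: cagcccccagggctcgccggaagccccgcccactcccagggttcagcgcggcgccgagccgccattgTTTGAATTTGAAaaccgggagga
Kif22, chr7:127042391-127042480, - strand: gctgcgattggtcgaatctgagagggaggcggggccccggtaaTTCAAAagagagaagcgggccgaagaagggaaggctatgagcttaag
Kif23, chr9:61946770-61946859, - strand: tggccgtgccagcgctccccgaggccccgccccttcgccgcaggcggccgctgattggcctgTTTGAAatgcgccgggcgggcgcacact
Kif4, chrX:100626005-100626094, + strand: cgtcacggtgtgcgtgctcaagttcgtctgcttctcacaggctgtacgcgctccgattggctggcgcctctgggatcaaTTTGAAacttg
In Kif20b the pair of matches lies back to back, which gives 12 capitals in a row. For the transport kinesins, the same stretches are shown for Kif3a, with the core of the NRF1 site (GCATGCG, which here overlaps its own reverse complement) and a CCAAT box in capitals, and for Kif5c, with a CRE core (TGACGT) that overlaps its own reverse complement in capitals.
Kif3a, chr11:53567309-53567398, + strand: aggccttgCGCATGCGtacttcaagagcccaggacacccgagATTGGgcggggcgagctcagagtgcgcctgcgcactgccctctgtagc
Kif5c, chr2:49619226-49619315, + strand: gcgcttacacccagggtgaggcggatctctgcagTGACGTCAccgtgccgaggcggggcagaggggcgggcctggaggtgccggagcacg
The last sequence is the strongest promoter peak of Kif1b in replicate 1, shown because Kif1b had the highest density of the transport list. Capitals mark its 5 replicate 1 footprints that were found again in replicate 2.
Kif1b, chr4:149307681-149307980, - strand: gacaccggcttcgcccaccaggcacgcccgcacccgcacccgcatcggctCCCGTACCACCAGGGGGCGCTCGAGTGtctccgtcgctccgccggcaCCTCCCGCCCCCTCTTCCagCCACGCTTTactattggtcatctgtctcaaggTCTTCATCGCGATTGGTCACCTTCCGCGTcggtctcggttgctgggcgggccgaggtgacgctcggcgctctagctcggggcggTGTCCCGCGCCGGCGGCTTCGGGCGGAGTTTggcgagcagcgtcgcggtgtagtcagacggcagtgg

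Promoters of the kinesin genes were mostly open, and the same 33 were called in each library. A promoter peak is one that overlaps the 1 kb to either side of any annotated transcription start site (TSS) of the gene. By this rule 33 of 38 kinesin genes (86.8%) were called in both libraries, against 55.1% of all protein-coding genes. Each library alone gave the same 33, where all genes stood at 57.7% in replicate 1 and 56.9% in replicate 2. The share was 8 of 9 (88.9%) for axonal transport kinesins and 11 of 12 (91.7%) for mitotic kinesins, so the lists differed by a single gene missing from each. All 6 other cargo kinesins, 5 of 6 ciliary and centriolar kinesins (83.3%) and 3 of 5 other kinesins (60%) had one. The genes without were Kif5a, Kif19a, Kif12, Kif28 and Kif2b. In bulk tissue, fewer cells with an open site and less cutting per cell cannot be told apart. Kinesin genes also have more annotated starts than the typical gene, with a median of 5.5 against 3, so that their promoter windows cover 6.06 kb against 4.00 kb, and the part of this in the share was not tested.

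The level at each promoter is given as the deposited cleavage density of its strongest peak, a depth-normalised signal, and as the percentile of that density among the peaks of its own library. Where a pair of densities is given for a peak, replicate 1 is the first and replicate 2 the other. The median over the 33 genes was 4.70 in replicate 1 and 2.84 in replicate 2, at percentiles 85.9 and 86.1. Over all genes called in both libraries the medians were 4.30 and 2.80, at percentiles 84.3 and 85.8. Axonal transport kinesins had medians of 5.16 and 3.56 (percentiles 87.4 and 89.7), and mitotic kinesins 4.95 and 3.03 (percentiles 86.7 and 87.2). The strongest peak was a different one in each library for Kif17 and Kif26b. The medians lie close together beside the range within each list. In replicate 1 this ran from 1.84 to 8.62 for the transport list and from 3.08 to 17.8 for the mitotic list. The 17.8 was a Kif22 peak beside the neighbouring gene Maz, while the peak at the main start of Kif22 had 2.90. The next highest mitotic density was 8.18, for Kif11.

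**Figure D1:**
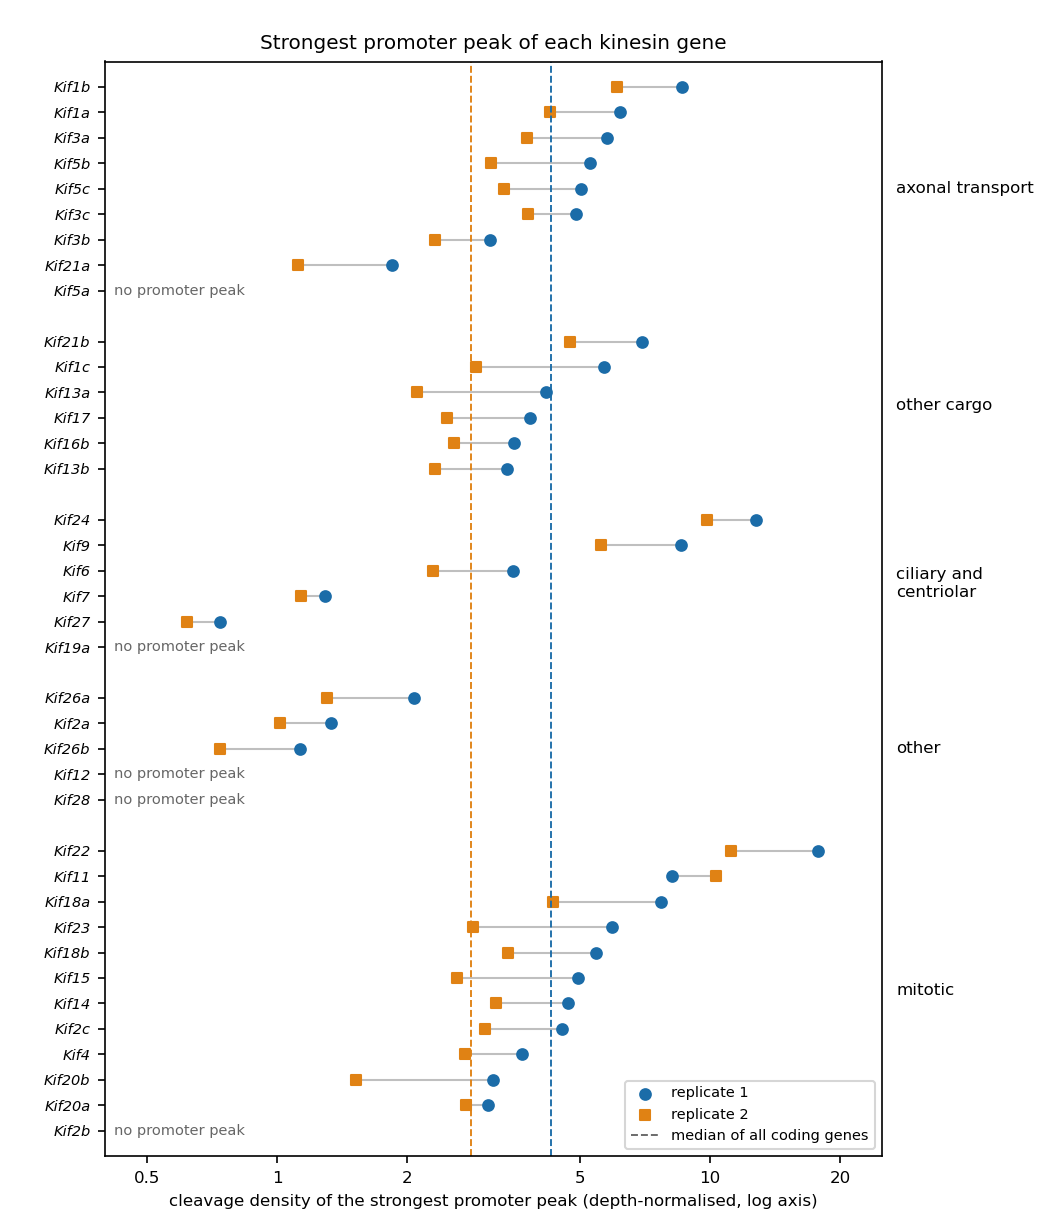
Cleavage density of the strongest promoter peak (horizontal log axis, depth-normalised units) for each of the 38 kinesin genes (rows, by list), with circles for replicate 1, squares for replicate 2 and dashed lines for the medians of all protein-coding genes called in both (4.30 and 2.80). Replicate 1 lies right of replicate 2 in every gene with a peak except Kif11 (8.18 and 10.3), and 5 genes have no promoter peak.

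Densities were lower in replicate 2 at nearly all of these promoters. The ratio of replicate 2 to replicate 1 had a median of 0.660 over all 12071 genes called in both libraries, with 5th and 95th percentiles of 0.496 and 0.918. Of these genes 2.29% had a ratio above 1. Among the kinesins the ratio was above 1 for 1 gene, Kif11, at 1.26.

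The axonal transport kinesins other than Kif5a each had a peak at or beside their start in both libraries. Kif1a, the motor for synaptic vesicle precursors and dense core vesicles (chromosome 1, 93015464 to 93101951, minus strand), had the most, with 5 shared peaks in its span. The span takes in the gene body and 10 kb upstream, and a shared peak is a replicate 1 peak that overlaps one of replicate 2. Its strongest peak covers the start and had a density of 6.19 in replicate 1 and 4.27 in replicate 2. Weaker promoter peaks followed as far as 1203 bp into the gene, at 1.72 to 1.97 in replicate 1.

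Kif1b, which moves mitochondria and synaptic vesicle precursors, had the densest promoter peak of the list, at 8.62 and 6.11 (chr4:149307681-149307980, printed above). A weaker peak inside the gene, at 1.73 in replicate 1, was also shared. Kif21a, a kinesin-4 that restrains microtubule growth and is carried along axons, had 3 shared promoter peaks, but its strongest reached only 1.84 and 1.12, the lowest of the list. The remaining conventional kinesin heavy chains were open at the start: Kif5b, the ubiquitous form, at 5.30 and 3.12, and Kif5c, the neuron-enriched form, at 5.03 and 3.34.

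The kinesin-2 subunits, which serve both axonal transport and the building of cilia, each had a peak over the start. Kif3a had densities of 5.78 and 3.78, Kif3b 3.11 and 2.31, and Kif3c, the neuron-enriched subunit, 4.92 and 3.79. Kif3a and Kif3b had 1 shared peak each in their spans, and Kif3c had 2. The order Kif3a, Kif3c, Kif3b of replicate 1 was not kept in replicate 2, where Kif3c stood marginally above Kif3a.

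Kif5a, the neuron-specific heavy chain of conventional kinesin (chromosome 10, 127225696 to 127263348, minus strand), was the transport kinesin without a promoter peak. The lowest false discovery rate (FDR) of any base in its promoter windows was 0.00140 in replicate 1 and 0.0182 in replicate 2, while peaks of the main lists all hold a base under 0.001. The looser lists, at an FDR of 0.05, held 2 weak peaks there in replicate 1, with densities of 1.62 and 1.41, and 1 in replicate 2, at 0.948. The peak of replicate 2 overlaps the weaker one of replicate 1, 740 bp inside the gene. In the looser lists 34 of 38 kinesins were called at the promoter, against 61.3% of all genes, and Kif5a was the gene gained. The only main peak in its span, at 8.10 and 5.36 (chr10:127266201-127266440), lies 2853 bp upstream and covers the start of Dctn2, which encodes a subunit of dynactin, the partner of the opposite motor dynein. The main lists thus put the strong site of this interval at the neighbouring gene in both libraries.

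**Figure D2:**
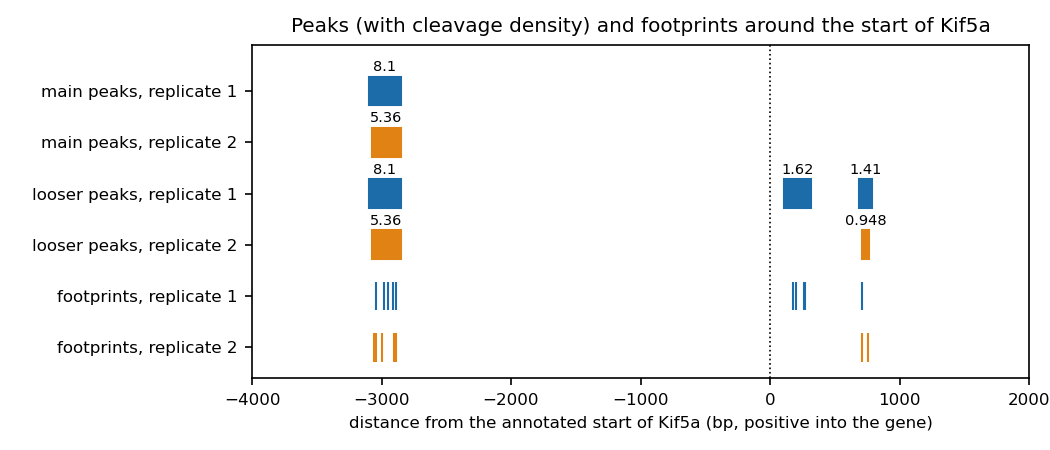
Peaks of the main and looser lists (boxes, with their cleavage density) and footprints (ticks) of each library by distance from the annotated start of Kif5a (horizontal axis, bp, positive into the gene). The main lists have a peak only at the Dctn2 side, 2853 bp upstream (8.10 and 5.36), and the looser lists add weak peaks inside the gene (1.62 and 1.41 in replicate 1, 0.948 in replicate 2).

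All 6 other cargo kinesins had a promoter peak. Kif21b, a kinesin-4 that acts on microtubule dynamics in dendrites, had 6.96 and 4.76. Kif1c, a kinesin-3 that carries dense core vesicles, had 5.71 and 2.88, but this peak covers the start of the neighbour Inca1, and the peak nearest to a start of Kif1c had 1.67 and 1.11. Kif13a and Kif13b, kinesin-3 motors of endosomal and membrane cargo, had 4.19 and 2.11, and 3.39 and 2.31. Kif16b, which moves early endosomes, had 3.53 and 2.56, and Kif17, which carries receptor vesicles into dendrites, had 3.84 and 2.46. Kif17 had a further promoter peak 35 bp from its 5′ start and 3 bp from that of Sh2d5, and this was its strongest in replicate 2. Its strongest in replicate 1 lay over an annotated start inside the gene, with the middle of the peak 11736 bp from the 5′ start.

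The ciliary and centriolar kinesins spanned a wide range. Kif24, which keeps centrioles from growing cilia, had 12.8 and 9.84, and Kif9, a motor of motile cilia, 8.59 and 5.62. Kif6 of motile cilia had 3.51 and 2.29. Kif7, the regulator of Hedgehog signalling at the ciliary tip, had only 1.29 and 1.13, and Kif27 of motile cilia 0.736 and 0.619, the lowest promoter density among the kinesins in each library. Kif19a, which limits the length of motile cilia, had no promoter peak and a single shared peak in an exon, at 1.97 and 1.42.

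Of the other kinesins, Kif2a, a microtubule depolymerase that prunes axon branches, had 1.33 and 1.01, Kif26a 2.07 and 1.30, and Kif26b 1.13 and 0.738. The median of these 3, 1.33 and 1.01, lay at percentile 44.5 in replicate 1, the lowest of the lists, and each gene had 2 or more weak peaks side by side near its start. Kif12 and Kif28 had no promoter peak. The shared peak of Kif12 lies 9530 bp upstream, at 1.39 and 0.56. Kif28 had 2 shared peaks, both intronic, and its stronger one was denser in replicate 2, at 1.94 in replicate 1 and 2.63 in replicate 2.

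Every mitotic kinesin except Kif2b was called at the promoter. The markers of dividing cells, at 9 of 9 against 55.1% of all genes, were called as well. The part of dividing cells in the mitotic result was not tested. Kif11, the motor that pushes spindle poles apart (chromosome 19, 37376403 to 37421859, plus strand), had 8.18 and 10.3, at percentiles 94.0 and 99.2. Its peak was also wider in replicate 2, at 260 bp against 160 bp in replicate 1. Kif18a, which aligns chromosomes at the spindle equator, had 7.71 and 4.35, and Kif18b, which shortens astral microtubules, 5.45 and 3.41. Kif23, the motor of the centralspindlin complex in cytokinesis, had 5.95 and 2.84, and Kif20a, which takes part in cytokinesis with the chromosomal passenger complex, 3.08 and 2.73.

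Kif15, which helps to hold the spindle bipolar, had 4.95 and 2.61, and Kif14, which acts in cytokinesis, 4.70 and 3.21. Kif2c, the microtubule depolymerase of centromeres, had 4.55 and 3.03, the chromokinesin Kif4 had 3.68 and 2.72, and Kif20b, a motor of the midbody, had 3.15 and 1.52. The strongest call of the whole family belonged to Kif22, another chromokinesin, at 17.8 and 11.2. That peak lies 124 bp in replicate 1 and 284 bp in replicate 2 from the start of the neighbour Maz, a zinc finger factor gene, and 516 and 476 bp from the start of a short Kif22 transcript at its 3′ end. The peak over the main start of Kif22 (chr7:127042361-127042600) reached 2.90 and 1.73. Kif2b, a depolymerase gene of 2.24 kb with 1 annotated start (chromosome 11, 91575315 to 91577558), had no peak and no footprint in its span in either library.

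The strongest promoter peak lay beside the start of a neighbouring gene in several mitotic kinesins and in no transport kinesin. The strongest replicate 1 promoter peak lay within 1 kb of a TSS of another protein-coding gene in 0 of 8 axonal transport kinesins and in 5 of 11 mitotic kinesins (45.5%), against 21.5% of all genes called in both libraries. The mitotic pairs were Kif15 with 1110059G10Rik, Kif18a with Mettl15, Kif20a with Brd8, Kif22 with Maz and Kif4 with Pdzd11. The other pairs were Kif24 with Nudt2, Kif9 with Klhl18 and Kif1c with Inca1, which makes 8 of 33 kinesins (24.2%), near the share of all genes. For Kif15, Kif18a, Kif4, Kif24, Kif9 and Kif1c the peak covers the start of the neighbour, so its level cannot be given to one gene of the pair. When peaks nearer to another coding gene were left out, an alternative added after seeing the data, 31 of 38 kinesins (81.6%) kept their call in both, against 53.4% of all genes. Transport kinesins then stood at 8 of 9 (88.9%) and mitotic kinesins at 10 of 12 (83.3%), with Kif4 and Kif9 the genes lost.

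At least 1 shared peak lay in the span of 37 of 38 kinesins, against 64.1% of all genes, with Kif2b the exception. At least 2, promoter peaks included, lay in 6 of 9 axonal transport kinesins (66.7%) and in 2 of 12 mitotic kinesins (16.7%), against 34.3% of all genes, and in 19 of 38 kinesins. All 6 other cargo kinesins (100%), 4 of 5 other kinesins (80%) and 1 of 6 ciliary and centriolar kinesins (16.7%) also had at least 2. In Kif1b, Kif21a and Kif5b, which are among the transport genes counted, all shared peaks were promoter peaks. The count of genes with at least 2 depended on the peak list. In the looser lists the mitotic genes Kif14 (4 shared peaks), Kif18a (2), Kif23 (2) and Kif4 (2) reached it too. The mitotic genes Kif2c (3) and Kif20a (3) kept it. Of the transport genes, only Kif5a (2) was gained there, so the gap between these lists was smaller than in the main lists. The share of all genes with at least 2 was taken in the main lists only. A shared peak beyond 1 kb of every TSS of the gene itself was found in 4 of 9 axonal transport kinesins (44.4%) and in 1 of 12 mitotic kinesins (8.33%), against 29.1% of all genes. This difference depended on the peak list. In the looser lists, an alternative added after seeing the data, the counts were 6 of 9 (66.7%) and 5 of 12 (41.7%), against 42.8% of all genes. With an overlap of 50% of each peak they were 2 of 9 (22.2%) and 1 of 12 (8.33%), against 26.3% of all genes. The transport share then lay below that of all genes. In the main lists, other cargo kinesins had one in 5 of 6 (83.3%), other kinesins in 3 of 5 (60%) and ciliary and centriolar kinesins in 2 of 6 (33.3%). Beyond 1 kb of any coding TSS, which leaves out the Dctn2 peak, the counts were 3 of 9 (33.3%) and 1 of 12 (8.33%), against 21.9% of all genes. The median span was 52.0 kb for the transport list and 48.2 kb for the mitotic list, against 27.4 kb over all genes. Spans ran from 44.6 to 165 kb in the transport list and from 12.2 to 111 kb in the mitotic list, and the part of span length in these counts was not tested.

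**Figure D3:**
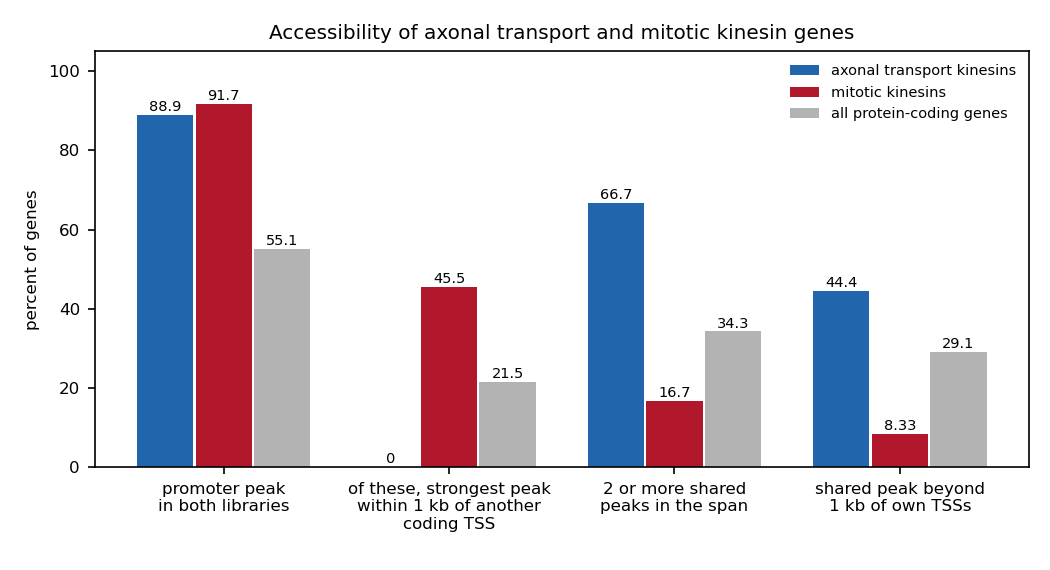
Percent of genes (vertical axis) with each call of the main lists (horizontal axis) for axonal transport kinesins, mitotic kinesins and all protein-coding genes. The call on neighbouring genes is taken over genes called in both. Promoter peaks were about as frequent in the kinesin lists (88.9% and 91.7%). Shared peaks of the main lists beyond 1 kb of the gene's own TSSs were found in 44.4% of transport and 8.33% of mitotic kinesins, against 29.1% of all genes. This last difference depended on the peak list and on the overlap required.

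The shared peaks numbered 72 over the spans of the kinesins, of which 48 lay within 1 kb of a TSS, 13 in introns, 4 in exons and 7 upstream. Axonal transport kinesins held 19, with 15 at promoters, 3 in introns and 1 upstream, and mitotic kinesins held 14, with 13 at promoters and 1 upstream. No shared intronic or exonic peak of the main lists lay in a mitotic kinesin, while the looser lists held such peaks in Kif14 and Kif4. The intronic peaks of the transport list were in Kif1a (chr1:93079661-93079980, 2.16 and 1.40), Kif3c (chr12:3390981-3391180, 2.25 and 1.53) and Kif5c (chr2:49727283-49727540, 1.39 and 1.03). All 3 were weaker than the promoter peak of their gene in each library. The upstream peak of the mitotic list was that of Kif2c (chr4:117189561-117189740), at 1.75 and 1.02.

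Among the other members, Kif16b and Kif26b had the most shared peaks, 5 each, followed by Kif21b and Kif6 with 4 each. An intronic peak of Kif16b (chr2:142731761-142732020) reached 4.03 and 1.65, above the promoter peak in replicate 1 and below it in replicate 2. A peak upstream of Kif16b, at 5.47 and 3.67, lies at the start of the antisense transcript Kif16bos and exceeded the promoter peak of Kif16b in both libraries. Kif21b had an upstream peak at 2.89 and 2.14 and intronic ones at 2.96 and 2.03 and at 1.82 and 1.72. The other shared peaks of Kif6 were intronic and weak, at 0.845 to 1.30 in replicate 1.

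Shared peaks were also counted per unit of length. The median was 0.217 shared peaks per 10 kb of span for all kinesins, 0.224 for axonal transport kinesins and 0.169 for mitotic kinesins, against 0.208 for all genes. The mitotic list ran from 0 for Kif2b to 1.61 for Kif20a, whose 3 shared peaks all lie at its start and that of Brd8 within a span of 18.7 kb. Some members differed between the main lists in weaker peaks, and less in the looser lists. Kif14 had 5 span peaks in replicate 1 and 1 in replicate 2, the extra ones at densities of 0.856 to 0.942, but in the looser lists it had 6 and 5, of which 4 were shared. Kif17 had 2 and 6 in the main lists, and 6 and 7 in the looser lists, of which 5 were shared.

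**Figure D4:**
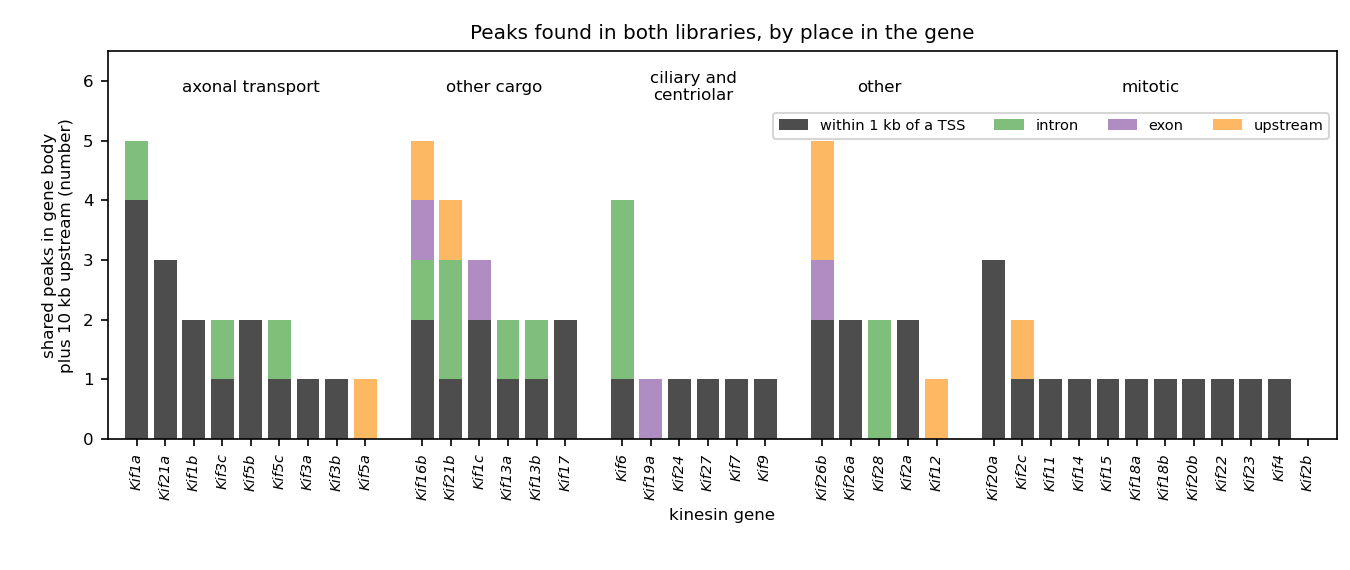
Number of peaks found in both libraries in the gene body plus 10 kb upstream (vertical axis) for each kinesin gene (horizontal axis, by list), with colours for peaks within 1 kb of a TSS, in introns, in exons and upstream. Kif1a, Kif16b and Kif26b reach 5 each, and 9 of 12 mitotic kinesins have 1, at the promoter.

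Footprints were found at the promoters of nearly the same genes. A promoter footprint found in both libraries (overlap of at least 1 bp) was present in 34 of 38 kinesins, against 56.9% of all genes, and the added gene was Kif5a. Each library alone also gave 34, where all genes stood at 61.6% in replicate 1 and 62% in replicate 2. All 9 axonal transport kinesins and 11 of 12 mitotic kinesins had one. Hotspots, the wider domains of raised cutting, met the promoter windows of 34 kinesins in both libraries, against 63.4% of all genes. Kif5a had 5 promoter footprints in replicate 1, 2 in replicate 2 and 1 in both, which spans 9 bp in replicate 1 and 8 bp in replicate 2.

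Kinesin promoters held 252 footprints in replicate 1 and 286 in replicate 2, of which 66.7% and 55.9% were found in the other library. Over all genes 62.2% and 52.3% were found again. Axonal transport kinesins had 69 and 83 footprints with 66.7% and 49.4% found again, and mitotic kinesins 76 and 91 with 78.9% and 62.6%. Ciliary and centriolar kinesins had 75.9% and 88.5% found again, and other kinesins 38.5% and 30.6%. Per gene, Kif1a had the most of the transport list, at 12 and 17, of which 9 of replicate 1 were shared. Kif22 had the most of the mitotic list, at 13 and 16 with 11 shared, while its span, which leaves out the Maz side, held 1 shared footprint. The median was 5 shared promoter footprints a gene in each of these lists, against 2 for all genes.

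Motifs were counted on both strands in windows from 250 bp before to 50 bp after the start, from RefSeq on GRCm38. Windows matched 31 of 38 kinesins, 7 of 9 axonal transport and 11 of 12 mitotic, and 16522 genes in all. Kif13b, Kif19a, Kif20a, Kif21b, Kif28, Kif5a and Kif5b were not matched. A CHR (TTTGAA) was present in 0 of 7 axonal transport kinesins and in 9 of 11 mitotic kinesins (81.8%), against 15.7% of all genes. Kif18a and Kif2b were the mitotic kinesins without it. With 7 transport windows, a count of 0 is near the share of all genes. In Kif14 and Kif2c the match lies in a window that touches no shared peak. The RefSeq start used for these genes lies inside the gene, away from the strongest promoter peak given above. Within 30 bp of the start, a CHR was present in 0 of 7 and in 7 of 11 (63.6%), against 2.52% of all genes. The 30 bp limit was chosen after the positions were seen, which may enlarge this gap. Among the rest of the family only Kif26b, at 9 bp before the start, and Kif27 held the letters. The Kif27 window also lies inside the gene and touches no shared peak.

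Footprints touched some of these matches and not others. Among windows that touch a shared peak, 7 of 8 mitotic kinesins held a CHR, against 822 of 8073 over all genes. The CHR touched footprints of both libraries in 3 of those 7, against 94 of those 822. Taken over all windows in shared peaks, with or without a CHR, this was 3 of 8 against 1.16%. In Kif11 the footprint covers the whole match in each library, over 28 bp in replicate 1 (chr19:37376360-37376387) and 38 bp in replicate 2 (chr19:37376356-37376393). The main peak of replicate 1 ends before that footprint, and that of replicate 2 reaches into it. In Kif4 the match is covered as well, over 14 bp and 13 bp, and in Kif15 all but the last base is, over 21 bp and 22 bp. In Kif18b, Kif20b and Kif23, also printed above, no footprint of either library touched the CHR, and in Kif22 a replicate 1 footprint touched its last base in genome order.

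**Figure D5:**
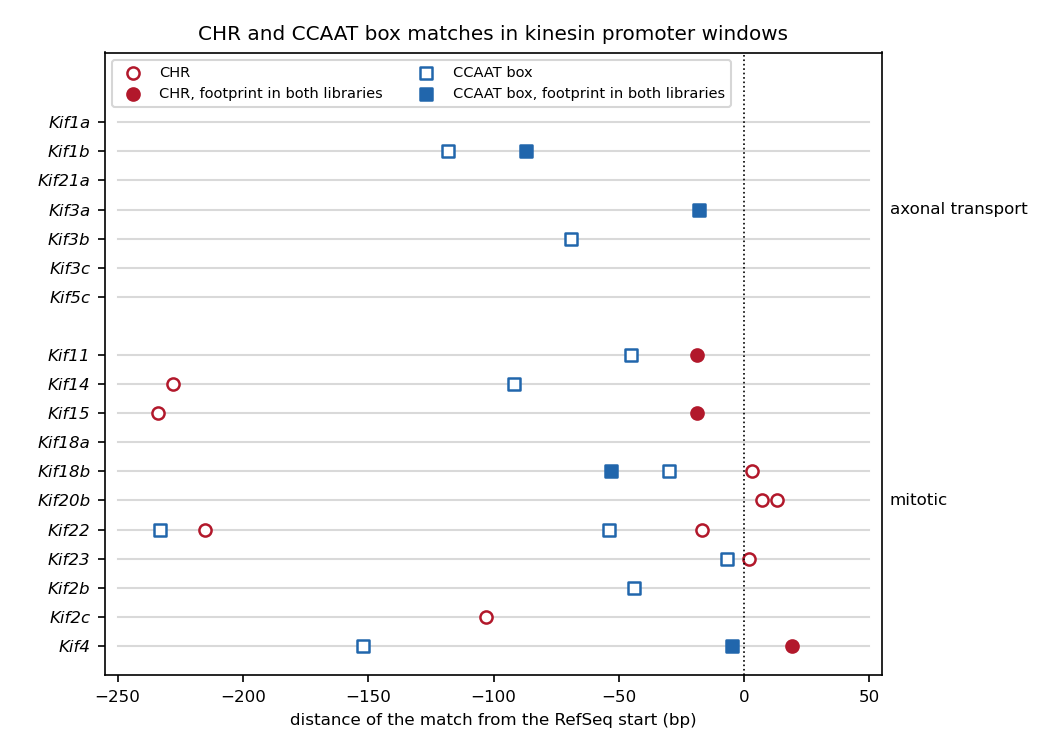
Matches to the CHR (circles) and the CCAAT box (squares) in the RefSeq promoter windows of axonal transport kinesins and mitotic kinesins (rows), by distance from the start (horizontal axis, bp), filled where footprints of both libraries touch the match. None of the 7 transport kinesins with a window has a CHR, and Kif5a and Kif5b had no window. In the mitotic list 7 genes have one within 30 bp of the start, a limit chosen after the positions were seen, filled in Kif11, Kif15 and Kif4.

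The other motifs did not separate the lists to that extent. The CCAAT box (CCAAT) was found in 3 of 7 axonal transport and 7 of 11 mitotic kinesins, against 38.8% of all genes, and the GC box (GGGCGG) in 5 of 7 and 6 of 11, against 48%. The ETS core (CCGGAAG) was in 1 of 7 and 4 of 11, against 12.3%, and the RFX core (GTTGCC) in 2 of 7 and 2 of 11, against 12.4%. The CRE core (TGACGT) was in 1 of 7 and 2 of 11, against 8.94%, and the NRF1 core in 1 of 7 and 0 of 11, against 4.67%. The forkhead motif (GTAAACA) was in 0 of 31 kinesin windows, against 2.96% of all genes. Among windows in shared peaks, a GC box touched footprints of both libraries in 4 of 7 axonal transport and 5 of 8 mitotic kinesins, against 50.5% of all such windows. For the CCAAT box this was 2 of 7 and 2 of 8, against 12.4%. For the ETS core it was 0 of 7 and 1 of 8, against 7.89%, for the RFX core 0 of 7 and 1 of 8, against 3.62%, and for the forkhead motif 0 of 25 kinesins, against 0.136%. With so few windows, counts that differ by 1 or 2 genes carry little.

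Single sites were marked by footprints in both libraries. The overlapping CRE cores of Kif5c lie under a 24 bp footprint in each (chr2:49619255-49619278 in replicate 1). The NRF1 core of Kif3a lies under footprints of 13 and 16 bp, and its CCAAT box, which overlaps a GC box, at the edge of footprints of 41 and 42 bp. In Kif18a, 3 CRE cores touch a footprint of 25 bp in replicate 1 and 23 bp in replicate 2 after the start. Among windows in shared peaks, a CRE core touched footprints of both libraries in 1 of 7 axonal transport and 1 of 8 mitotic kinesins, against 7% of all such windows, and an NRF1 core in 1 of 7 and 0 of 8, against 5.35%.

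Promoters of genes that work with kinesins were mostly called too. Of 25 partner genes, from light chains and adaptors to dynein, dynactin and spindle proteins, 23 (92%) were called at the promoter in both libraries, against 55.1% of all genes. They had a median of 8 annotated starts and promoter windows of 8.81 kb, against 3 and 4.00 kb over all genes, and the part of this in the count was not tested. The most shared peaks were in Kifc3, a C-terminal kinesin, with 6, and in Dync1i1, a neuronal dynein intermediate chain, with 5. Dctn1, the large dynactin subunit, Fez1, a kinesin-1 adaptor, Mapt, the axonal microtubule protein tau, and Trak1, the adaptor for mitochondria, had 4 each. Klc3, a kinesin light chain, had no peak in its span. Mapk8ip1, a scaffold that joins kinesin-1 to its cargo, had no promoter peak and 1 shared peak in its span.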

How the data were processed

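DNase-seq of frontal cortex was analysed from interval lists deposited per library for 2 biological replicates. Peak lists carry a cleavage density, a signal that the authors normalised to read depth, per the text lists deposited with the samples. Hotspots carry the highest −log10 FDR, as deposited by the authors. The footprint lists carry 0.01 in every line of a p-value column, a threshold the authors deposited, and the per-base tracks hold an FDR for bases under 0.05. For replicate 2 the authors also deposited footprint lists with positions and no score. The sources used here do not give aligner, callers or versions. Reads of an F1 cross placed on a C57BL/6J genome may favour the C57BL/6J allele, which was not examined.

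The main peak list was the one whose peaks all held a base at FDR under 0.001, inferred from the per-base FDR, and the looser one that at 0.05. Density steps (100% whole multiples, tolerance 0.05 of a step) gave the relative depth. Overlaps used Python 3.11.15, numpy 2.4.6 and pandas 2.3.3. The lowest FDR in each region was taken with bedtools 2.31.1, and plots used matplotlib 3.10.9. Of 21951 annotated coding genes, 21911 with a unique symbol off the mitochondrial chromosome were used. Promoter windows of the 31 matched members equalled the genome at their coordinates.

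The members and lists were chosen with earlier results of these data known. Every transport and mitotic kinesin was named by rule, as were the members and partners with no promoter peak or with the most shared peaks, and other members fill out the family. By the rule for sequences, the strongest mitotic promoter peak would be that of Kif22 beside Maz, and the promoter stretches were printed instead, a choice made after the values were seen. Of 27 partner symbols, Kifbp and Lis1 were not matched. The overlap procedure was tested on simulated data. No test was possible with 1 group, so no p-value is reported. Alternatives were a stricter, a looser and read-derived peak lists, equal list size, other overlaps, windows, spans, TSS sets, footprint lists and list members, and each library alone.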

Additional observations from a re-analysis of the deposited data

How the results depend on the processing

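Promoter shares changed little over the alternatives run, from 81.6% to 89.5% for all kinesins, 88.9% to 100% for axonal transport kinesins and 83.3% to 92.3% for mitotic kinesins. Where the same alternatives were run on all genes, their share was 53.1% to 61.3%. Genes with a promoter footprint in both libraries numbered 32 to 35 of the kinesins, 9 of the axonal transport kinesins throughout, and 10 to 11 of the mitotic kinesins. The median of shared peaks per 10 kb moved by more than 1 SD between the libraries in 12 of 32 values. For all kinesins (0.217) it was 0.377 in the looser lists, 0.299 and 0.325 in the read-derived lists, smaller and larger, 0.155 in the gene body alone, and 0.245 to 0.299 with each library left out. For axonal transport kinesins (0.224) it was 0.391 in the looser lists, 0.316 in both read-derived lists and 0.224 to 0.316 with each library left out. For mitotic kinesins (0.169) it was 0.310 in the looser and the larger read-derived lists and 0.169 to 0.263 with each library left out. The median over all genes moved the same way, to 0.356 in the looser, 0.275 in the smaller and 0.351 in the larger read-derived lists, 0.141 in the gene body alone, and 0.289 and 0.262 without replicate 1 and without replicate 2. Alternatives for shared peaks beyond 1 kb of a gene's own TSSs were chosen after seeing the data. Their count for all kinesins (15) was 25 in the looser lists, 13 with an overlap of 50% and 19 with either library left out. For axonal transport kinesins (4) it was 2 with an overlap of 50%, 6 in the looser lists, and 4 to 5 with each library left out. For mitotic kinesins (1) it was 5 in the looser lists, 3 and 4 in the smaller and larger lists derived from reads, and 2 to 3 with each library left out, while all genes stood at 29.1% in the main lists and 25.4% to 42.8% in the others. Where a library was left out, every peak of the other one counted, shared or not. Those medians and counts of peaks are therefore of another measure than the main ones, and the SD was taken from such medians. No paired analysis was possible because there is 1 group and no groups were compared. Absolute depth is unknown, and a missing peak is one that did not pass the threshold of the list used.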
